A study of Mus musculus with 4 samples.

Results

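The Nrf2 core genes are the 10 genes examined here: the transcription factor Nrf2 (Nfe2l2), its inhibitor Keap1, and the antioxidant genes Nqo1, Hmox1, Gclc, Gclm, Srxn1, Txnrd1, Slc7a11 and Gsr. They were chosen by name, as the rows of the count table with these gene symbols, and not by their values. All 10 were found among 55487 genes, and all 10 passed the filter of at least 10 counts summed over the libraries, so none was lost. The cells were wild-type mouse embryonic fibroblasts (MEFs), primary cells that the paper's methods describe as prepared from mid-gestation C57BL/6J embryos. The 2 control libraries came from untreated MEFs and the 2 PEDF libraries from MEFs treated with pigment epithelium-derived factor, a secreted protein of the serpin family, at 100 ng/mL for 24 h. Each of 2 experiments gave 1 control and 1 PEDF library, and its MEFs came from embryos of its own. Labelled as passage 2, the MEFs are placed at a later passage in the paper's text. Both groups were grown in medium with serum, and the MEFs carried no engineered allele. The treated group received PEDF purified from mammalian cells, which the paper describes as a recombinant protein. Neither the labels nor the methods say how many embryos were pooled, so the spread measured here is that between 2 MEF preparations.

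Nrf2 is a transcription factor that is held at a low protein level in unstressed cells, because Keap1 brings it to the Cul3 ubiquitin ligase for degradation. Oxidants and electrophiles modify cysteines of Keap1, Nrf2 then accumulates, pairs with small Maf proteins and binds antioxidant response elements near its target genes. Since this control acts mainly on the protein, the mRNA levels of Nfe2l2 and Keap1 do not report Nrf2 activity directly, whereas the mRNA levels of its targets are the usual readout. Fibroblasts use these genes to make glutathione, to reduce oxidized thiols and to detoxify quinones and haem. PEDF was compared with control for each of them.

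The MEF libraries held 14722848 to 18144640 counts, with 22135 to 22647 genes having a count. Levels of single genes are in CPM, which is the count of the gene per 1000000 counts after scaling with TMM factors from edgeR (0.983 to 1.01). The 6 fibroblast markers Col1a1, Col1a2, Pdgfra, Pdgfrb, Thy1 and Vim summed to 32129 and 37944 CPM in the control libraries (lower and higher) and to 29583 and 32117 CPM in the PEDF libraries. These sums did not overlap, but the lower control sum (32129 CPM) and the higher PEDF sum (32117 CPM) nearly met. Without a block for the experiment 0 of the 6 markers were called, beside 0.00516% of all genes tested. With it 3 were called, beside 3.75%. The part of these markers in the results below was not tested. Markers of macrophages (7 genes, 68.6 to 86.1 CPM in control and 71.4 to 75.6 CPM in PEDF libraries), skeletal muscle (5 genes, 268 to 348 and 296 to 366 CPM), endothelium (5 genes, 16.0 to 16.7 CPM over the libraries) and epithelium (5 genes, 27.3 to 30.9 CPM) were also present, and for these 4 lists the ranges of the groups overlapped. Of the skeletal muscle markers, Acta1 was called with the block (0.19 higher on the log2 scale, edgeR adjusted p = 0.0353), and no marker of the other 3 lists was called. The 4 erythroid markers summed to at most 1.61 CPM, and 1 of them had no count. In bulk RNA, fewer cells of a type and less RNA per cell cannot be told apart.

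No member changed with PEDF in the quasi-likelihood test of edgeR fitted with treatment alone. The count was 0 of 10 at an adjusted p under 0.05, and 0 of 10 at an unadjusted p under 0.05, which 6.88% of all genes reached. Of all 19384 genes tested, 1 was called (0.00516%), so a count of 0 among 10 genes does not set the members apart from the rest. The log2 fold changes of the members ran from -0.31 (Slc7a11) to 0.14 (Hmox1), with a median of 0.032, beside a median of 0.00118 over all genes tested. With the experiment as a block, so that PEDF is compared within each preparation, 726 genes were called (3.75%), of which 324 were higher (1.67%) and 402 lower (2.07%), and again 0 of the 10 members. The members at an unadjusted p under 0.05 with the block were Hmox1 and Slc7a11, 2 of 10 beside 14.6% of all genes. DESeq2 called 0 members too, at a background of 0.0594% without and 9.01% with the block (0.0115% and 6.55% with the limit of its own filter set to 0.05), but with the block it gave an adjusted p to 1 of the 10 members only. Summed over the 10 members, the level was 709 and 730 CPM in control 1 and control 2, and 715 and 713 CPM in PEDF 1 and PEDF 2. The highest and the lowest sum were thus both in control libraries.

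**Figure D1:**
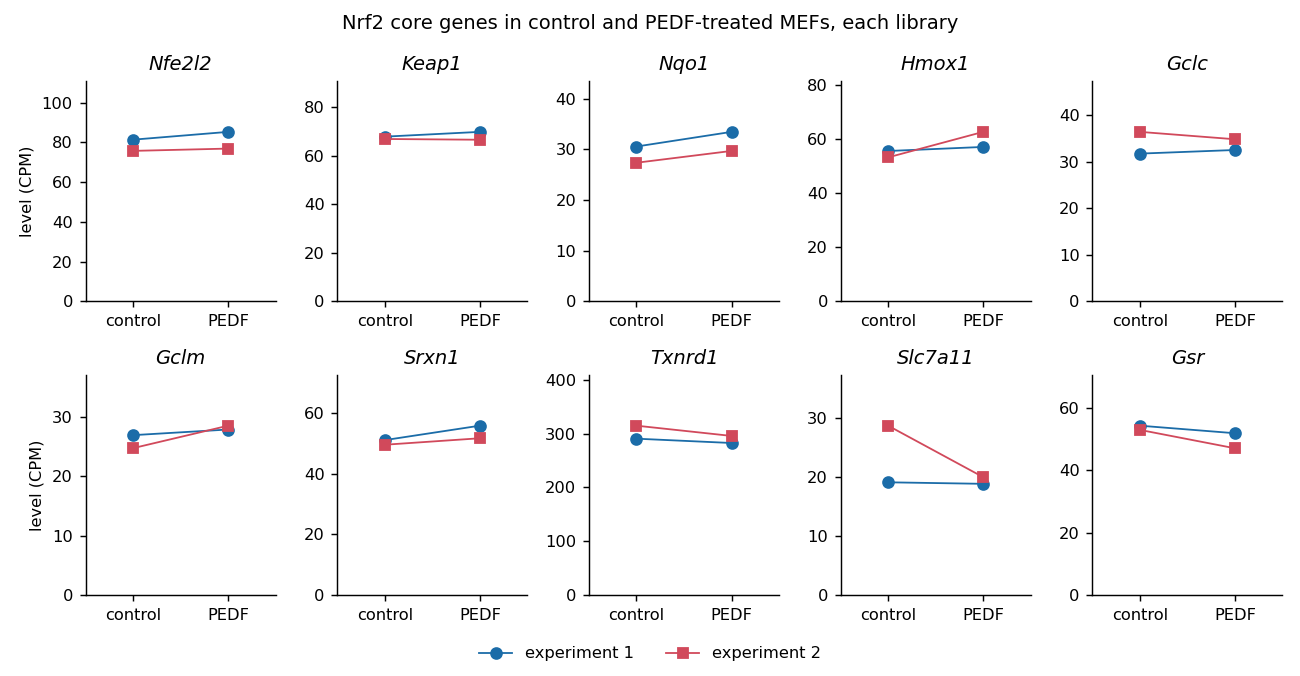
Level of each Nrf2 core gene in CPM (vertical axis from 0, a separate scale for each gene) in control and PEDF-treated MEFs, 1 point per library and 1 line per experiment. The lines are nearly flat for most genes, and the steepest is that of Slc7a11 in experiment 2, from 28.7 to 20.0 CPM.

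Nrf2 binds the antioxidant response element, and the promoters were searched for its core, TGACNNNGC, on both strands. RefSeq promoter windows of build GRCm38.p6, from 250 bases before to 50 bases after a transcription start, were found for 7 members in 9 windows. Hmox1, Gclc and Gsr had no window. The core was found in 4 of the 9 windows, those of Nfe2l2, Gclm and Srxn1 and 1 of the 3 of Txnrd1, and in 12.4% of the 32851 windows of all genes. The windows of Keap1, Nqo1 and Slc7a11 held no core. Of the other lists used here, the core was in 4 of 10 windows for the ATF4 pathway, 6 of 17 for detoxification and efflux genes, 3 of 9 for NADPH supply, 2 of 12 for further glutathione and thiol genes, 1 of 7 for haem and iron genes and 3 of 23 for Nrf2 turnover and partners, and these shares were not tested against each other. These 4 sites are shown as the matches found in member windows, with the core in capitals and 10 bases on each side, read 5′ to 3′ on the strand of the gene. A match is a description of letters and not evidence of binding.
Nfe2l2 (chr2:75704885-75704913, minus strand, bases -240 to -232 from the start): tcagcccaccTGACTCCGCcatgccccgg
Gclm (chr3:122245413-122245441, plus strand, bases -134 to -126): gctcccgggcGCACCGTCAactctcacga
Srxn1 (chr2:152105542-152105570, plus strand, bases 29 to 37): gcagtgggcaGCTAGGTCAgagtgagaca
Txnrd1 (chr10:82859104-82859132, plus strand, bases -92 to -84): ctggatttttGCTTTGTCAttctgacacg
Positions are counted from the start itself as base 1, and the base before it is -1. The sites of Gclm, Srxn1 and Txnrd1 hold the core on the complementary strand, so it is read here in reverse complement. The AP-1 motif TGACTCA, which resembles the core, was found in 1 of the 9 windows (5.2% of all windows), that of Srxn1, which held it at 2 sites on the complementary strand, in capitals in the lines that follow. No position was shared by the 2 motifs there.
Srxn1 (chr2:152105412-152105438, plus strand, bases -102 to -96): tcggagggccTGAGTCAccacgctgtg
Srxn1 (chr2:152105469-152105495, plus strand, bases -45 to -39): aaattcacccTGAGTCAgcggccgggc

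Nfe2l2, the gene of the factor itself, lies on chromosome 2 (75675513 to 75704641, minus strand, GRCm38, as all gene coordinates here) and is protein-coding with 3796 bases of exons. It was measured at 81.4 and 75.7 CPM in control 1 and control 2 and at 85.3 and 76.9 CPM in PEDF 1 and PEDF 2. The groups overlapped, and experiment 1 was the higher one in both. The log2 fold change was 0.046 (95% interval -0.13 to 0.22; edgeR adjusted p = 0.929), a range from -8.49% to 16.5% in level. Keap1, the cysteine-rich adaptor that targets Nrf2 for degradation, lies on chromosome 9 (21229730 to 21239361, minus strand). Its level was 67.9 and 66.9 CPM in control and 69.8 and 66.6 CPM in PEDF libraries, the narrowest spread of the 10 genes relative to its level. Keap1 had a log2 fold change of 0.017 (-0.15 to 0.18; edgeR adjusted p = 0.975). On the TPM scale, which divides by gene length and so lets genes be compared, the ratio of Nfe2l2 to Keap1 was 1.48 and 1.40 in control 1 and 2 and 1.51 and 1.43 in PEDF 1 and 2, so it differed more between the experiments than between the groups. Of the exons of Keap1, 510 bases overlap Gm16754, an antisense gene with 256 to 361 counts per library beside 1002 to 1194 for Keap1. The strand setting of the counting is not given in the sources used here, so reads of the pair may not be fully told apart.

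Neither of the 2 subunit genes for the first step of glutathione synthesis passed the test. Gclc, the catalytic subunit of glutamate-cysteine ligase, the rate-limiting enzyme of glutathione synthesis, lies on chromosome 9 (77754535 to 77794485, plus strand). It was at 31.7 and 36.4 CPM in control 1 and 2 and at 32.5 and 34.8 CPM in PEDF 1 and 2, so both PEDF libraries lay between the control libraries. With PEDF the log2 fold change of Gclc was -0.019 (-0.23 to 0.19; edgeR adjusted p = 0.977). Gclm, the modifier subunit of the same enzyme, lies on chromosome 3 (122245557 to 122270732, plus strand) and was at 27.0 and 24.8 CPM in control and at 27.9 and 28.6 CPM in PEDF libraries. The PEDF libraries of Gclm were both above the control libraries, by little in experiment 1. This came to a log2 fold change of 0.13 (-0.090 to 0.35; edgeR adjusted p = 0.814), and within experiments to 0.050 (counting interval -0.15 to 0.25) and 0.21 (0.019 to 0.39). Counting intervals compare the counts of 2 libraries and cover counting error only, so they leave out the spread between preparations. PCR copies of a molecule are counted more than once, so the intervals may be too narrow for counting error as well. The TPM ratio of catalytic to modifier subunit was 1.96, 2.45, 1.94 and 2.03 in control 1, control 2, PEDF 1 and PEDF 2, and control 2 stood above the other 3. Exons of Gclm overlap Gm17494 on the opposite strand (296 bases, 25 to 35 counts) and the pseudogene Gm6061 on the same strand (244 bases, 14 to 22 counts), both low beside the 398 to 509 counts of Gclm.

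Slc7a11, the cystine importer xCT that supplies cysteine for glutathione, was the member with the widest spread. The gene spans 49892526 to 50443614 on chromosome 3 (minus strand) and, with 13922 bases of exons, is the longest of the 10. Its level was 19.1 and 28.7 CPM in control 1 and 2 and 18.8 and 20.0 CPM in PEDF 1 and 2. Control 2 stood alone above the other 3 libraries, which lay close together. For Slc7a11 the log2 fold change was -0.31 (-0.66 to 0.045; edgeR adjusted p = 0.746), and the interval reached from -36.7% to 3.19% in level. Within experiment 1 it was -0.020 (counting interval -0.26 to 0.22) and within experiment 2 it was -0.52 (-0.72 to -0.32), on 512 counts in control 2 and 356 in PEDF 2. With the experiment as a block it was -0.29 (edgeR adjusted p = 0.101), and -0.19 (adjusted p = 0.496) when a trend with gene length was removed as well. Without control 2 it was 0.023, and without control 1 it was -0.56, where edgeR gave an adjusted p of 0.0295, the only call of a member with PEDF in any setting run. The value therefore rests on 1 control library. Slc3a2, the partner chain of the transporter and named outside the naming rule, was at 258, 288, 259 and 278 CPM in control 1, control 2, PEDF 1 and PEDF 2, also highest in control 2 but by less. Its TPM ratio to Slc7a11 was 53.3, 39.6, 54.2 and 54.9 in the same order of libraries.

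Gsr, glutathione reductase, which returns oxidized glutathione to its reduced form with NADPH, lies on chromosome 8 (33652523 to 33698163, plus strand). It was measured at 54.2 and 52.8 CPM in control and at 51.8 and 47.0 CPM in PEDF libraries. Both PEDF libraries lay below both control libraries, the only member for which this was so. Its fold change on the log2 scale was -0.12 (-0.30 to 0.062; edgeR adjusted p = 0.796), and within the experiments -0.066 and -0.17. With the block and the length trend removed it was -0.17 (-0.31 to -0.032; unadjusted p = 0.0157, edgeR adjusted p = 0.251), the only member at an unadjusted p under 0.05 in that fit, beside 11.7% of all genes.

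Txnrd1, cytosolic thioredoxin reductase, a selenoprotein that keeps thioredoxin reduced, was the most abundant member. It lies on chromosome 10 (82833951 to 82897712, plus strand) and was at 291 and 315 CPM in control 1 and 2 and at 283 and 296 CPM in PEDF 1 and 2. The groups overlapped, while PEDF was below control within each experiment. The log2 differences there were -0.041 (counting interval -0.10 to 0.020) and -0.090 (-0.14 to -0.036). With 4292 to 5619 counts per library the interval of Txnrd1 was the narrowest, a log2 fold change of -0.066 (-0.22 to 0.084; edgeR adjusted p = 0.877). Srxn1, sulfiredoxin, which repairs overoxidized peroxiredoxins, lies on chromosome 2 (152105516 to 152111376, plus strand). It was at 51.0 and 49.5 CPM in control and at 55.8 and 51.6 CPM in PEDF libraries, so PEDF 2 was only just above control 1. Srxn1 had a log2 fold change of 0.095 (-0.081 to 0.27; edgeR adjusted p = 0.837).

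Nqo1, a quinone reductase and one of the most widely used readouts of Nrf2, lies on chromosome 8 (107388225 to 107403206, minus strand). Its level was 30.6 and 27.3 CPM in control 1 and 2 and 33.4 and 29.7 CPM in PEDF 1 and 2. PEDF was above control within each experiment, by 0.13 and 0.12 on the log2 scale, but each counting interval included 0 (-0.054 to 0.32 and -0.062 to 0.30), and PEDF 2 lay below control 1. Nqo1 had a log2 fold change of 0.13 (-0.096 to 0.35; edgeR adjusted p = 0.824). With the block it was 0.12, and 0.038 with the length trend removed as well. Hmox1, the inducible haem oxygenase, which is also driven by haem through loss of the repressor Bach1, lies on chromosome 8 (75093621 to 75100589, plus strand). It was at 55.5 and 53.2 CPM in control and at 57.0 and 62.6 CPM in PEDF libraries, and PEDF 2 stood apart from the other 3. Hmox1 had a log2 fold change of 0.14 (-0.037 to 0.32; edgeR adjusted p = 0.763), with 0.039 (-0.10 to 0.18) in experiment 1 and 0.24 (0.11 to 0.36) in experiment 2. With the block Hmox1 had an unadjusted p of 0.0403 in edgeR (adjusted p = 0.307), and with the length trend removed its log2 fold change was 0.059.

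**Figure D2:**
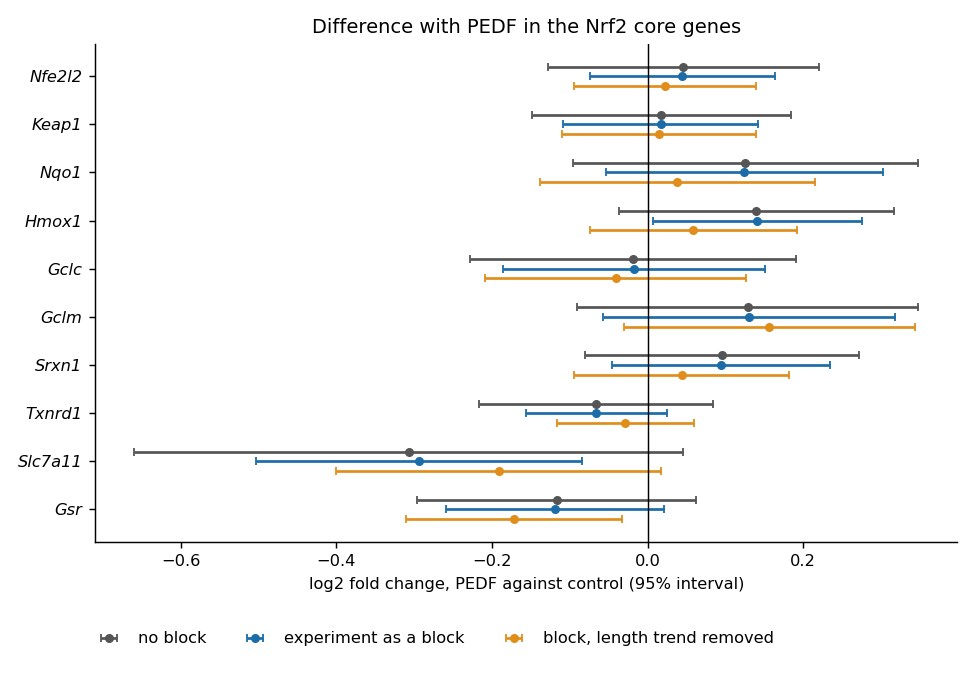
Log2 fold change of each Nrf2 core gene, PEDF against control (points), with 95% intervals (bars) from edgeR fits without a block, with the experiment as a block, and with the block and a gene length trend removed. Without the block all 10 intervals include 0, with the block those of Hmox1 and Slc7a11 do not, and with the length trend removed only that of Gsr does not.

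PEDF libraries were both above both control libraries for Hmox1, Gclm and Srxn1 and both below for Gsr. Such a lack of overlap was found for 37.3% of all genes tested (18.9% higher and 18.4% lower), so 4 of 10 is close to the background. By direction of the fold change alone, 6 members were higher and 4 lower with PEDF, beside 50.2% higher over all genes tested. The intervals bound what these libraries could hide: without the block, none of the 10 intervals reached above a 1.27-fold higher level, which was the upper end for Nqo1 and Gclm, and the lowest end was 0.633-fold, for Slc7a11. With the block the upper ends ran from 0.943-fold (Slc7a11) to 1.25-fold (Gclm).

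By mean TPM over the 4 libraries, the order of the members was Txnrd1 (118), Hmox1 (92.4), Nfe2l2 (59.5), Nqo1 (55.1), Gsr (52.9), Srxn1 (52.2), Keap1 (40.9), Gclc (25.5), Gclm (12.2) and Slc7a11 (4.42). Txnrd1 ranged from 109 to 129 TPM over the libraries and Hmox1 from 87.9 to 103, so these 2 did not overlap. Nfe2l2 (57.7 to 61.6 TPM) overlapped Nqo1 (51.0 to 59.0) in range but exceeded it within each library. It lay above Gsr (49.1 to 55.6) and Srxn1 (50.8 to 54.2) without overlap. The ranges of Nqo1, Gsr and Srxn1 overlapped. Nqo1 exceeded Srxn1 within each library, by little in control 2, and the place of Gsr changed with the library and is not resolved. Keap1 (40.7 to 41.3 TPM), Gclc (23.6 to 28.0), Gclm (11.4 to 13.1) and Slc7a11 (3.71 to 5.97) followed with no overlap between neighbours. Txnrd1 exceeded 93.9% of the genes tested in mean TPM, and Slc7a11 exceeded 37.1% of them.

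The 2 MEF preparations were compared with each other in the same way, with treatment as a term. Between experiment 2 and experiment 1, 870 of the 19384 genes were called by edgeR (4.49%; 2.3% higher and 2.19% lower in experiment 2), and 1 of the 10 members, Slc7a11. Slc7a11 was higher in experiment 2 by 0.34 on the log2 scale (0.13 to 0.55; edgeR adjusted p = 0.0344). This call was lost with filterByExpr (adjusted p = 0.0512) and without a treatment term (0.600), DESeq2 gave no adjusted p for it, and the control pair (19.1 and 28.7 CPM) carried more of it than the PEDF pair (18.8 and 20.0 CPM). Nfe2l2 was lower in experiment 2 by a log2 difference of -0.13 (-0.25 to -0.0080), with an unadjusted p of 0.0364 and an adjusted p of 0.284 in edgeR. The median size of the difference between experiments over the members was 0.089 on the log2 scale, beside 0.11 for the difference with PEDF without the block. Over all genes tested these medians were 0.135 and 0.137, both larger than those of the members.

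Gene length moved with the comparison and is given beside it. In the 10701 genes whose mean log2 CPM exceeded 3, the log2 difference with PEDF had a slope of -0.040 per doubling of exon length in experiment 1 and -0.056 in experiment 2. Longer genes were thus lower with PEDF in both, and the median log2 fold change with the block went from 0.092 in the 1423 genes under 2000 bases to -0.079 in the 2121 genes over 8000 bases. A slope of 0.050 (control) and 0.035 (PEDF) was also found between the experiments. Among the members, Nqo1 (1553 bases) and Hmox1 (1751 bases) are short and Slc7a11 is long. The log2 fold changes of these 3 with the block were 0.12, 0.14 and -0.29, and 0.038, 0.059 and -0.19 with the trend removed, whereas Gclm, at 6291 bases, went from 0.13 to 0.16. What produced the trend was not tested.

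**Figure D3:**
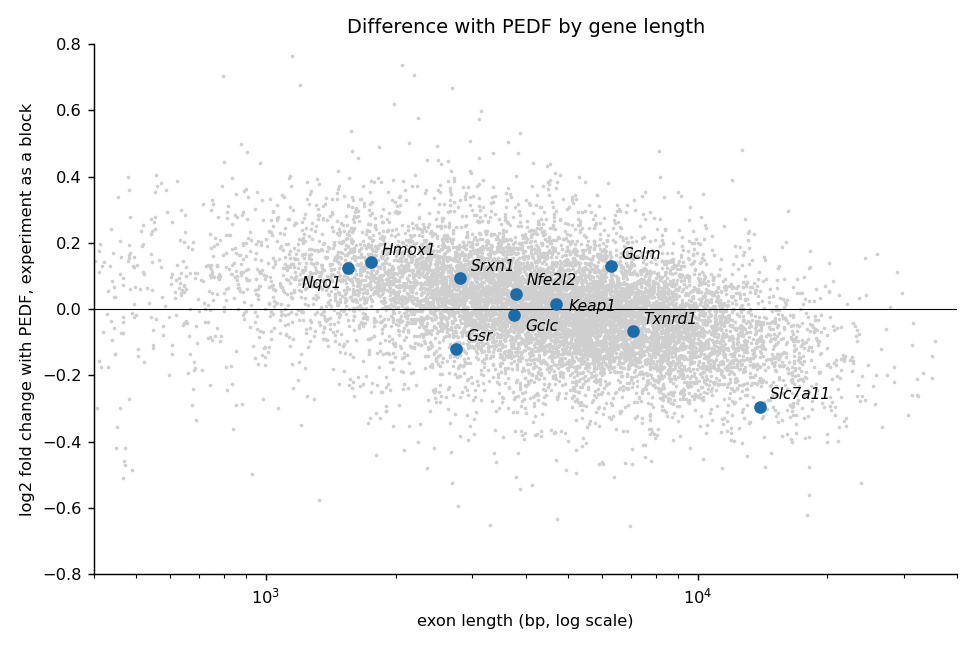
Log2 fold change with PEDF, with the experiment as a block (vertical axis), against exon length in bases (horizontal axis, log scale), for genes whose mean log2 CPM exceeded 3 (grey) and the 10 Nrf2 core genes (blue); genes beyond the axes are not drawn. The grey points slope downwards from short to long genes, with Nqo1 and Hmox1 at the short end and Slc7a11 at the long end.

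The wider Nrf2 pathway was read from 6 lists with 69 entries of the count table, 64 of which passed the filter. No gene of these lists changed with PEDF without the block (0 of 64). At an unadjusted p under 0.05 there were 8 of 64 without the block, beside 6.88% of all genes, and 19 of 64 with it, beside 14.6%. With the block 5 were higher and 1 was lower, 6 of 64 beside the 3.75% called among all genes. With the length trend removed as well, 3 were higher and 1 lower, beside 2.17% of all genes (0.913% higher and 1.26% lower). The median log2 fold change with the block was 0.058 over the 64 genes and 0.00226 over all genes tested. With the length trend removed as well, these medians were 0.037 and -0.0041.

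Among the 18 genes for Nrf2 turnover and its partners, which include Cul3, the small Maf genes and the repressors Bach1 and Bach2, 0 were called in either fit, and 13 of 18 were on the lower side without the block, beside 9652 of the 19384 genes tested. In the same fit, the higher genes by sign were 5 of 6 NADPH genes, 5 of 8 glutathione and thiol genes and 5 of 8 haem and iron genes. They were 11 of 15 detoxification genes and 7 of 9 ATF4 pathway genes, and 38 of the 64 in all. These counts were not tested. The median of the ATF4 list was 0.033 with the block and -0.020 with the length trend removed as well. In the same order of fits, the medians were 0.075 and 0.049 (NADPH), 0.15 and 0.084 (glutathione and thiol), 0.086 and 0.034 (haem and iron) and 0.17 and 0.082 (detoxification). Within these 18 genes, the 2 highest in mean TPM were Sqstm1, the autophagy receptor p62 that sequesters Keap1, and Nfe2l1, a membrane-bound relative of Nrf2. Sqstm1 was at 341 and 329.7 CPM in control and at 360.1 and 348 CPM in PEDF libraries, a log2 fold change of 0.078 (-0.065 to 0.22; edgeR adjusted p = 0.835). Nfe2l1 was at 344 and 356 CPM in control and at 335 and 338 CPM in PEDF libraries, a log2 fold change of -0.056 (-0.20 to 0.087; edgeR adjusted p = 0.894). Neither pair of groups overlapped, and neither difference passed the test.

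Of the 6 genes that supply NADPH, the reductant used by Gsr and Txnrd1, 1 was called with the block. This was Taldo1, transaldolase of the pentose phosphate pathway, at 131 and 124 CPM in control and 149 and 137 CPM in PEDF libraries. The log2 fold change of Taldo1 was 0.16 with the block (edgeR adjusted p = 0.0488) and 0.17 without it (adjusted p = 0.713), and the call was lost with the length trend removed (0.094, adjusted p = 0.489). In the fit without the block, the value ran from 0.10 without PEDF 1 to 0.23 without PEDF 2. DESeq2 with the block gave Taldo1 no adjusted p at its default filter and 0.397 with the limit set to 0.05. Idh1, cytosolic isocitrate dehydrogenase, was at 144 and 134 CPM in control and at 152 and 151 CPM in PEDF libraries (log2 fold change 0.12, edgeR adjusted p = 0.195 with the block).

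Of the 8 further glutathione and thiol genes tested, 2 were called with the block. Gpx4, the peroxidase that reduces lipid hydroperoxides, was at 184 and 163 CPM in control 1 and 2 and at 231 and 184 CPM in PEDF 1 and 2. Both PEDF libraries lay above both control libraries, though PEDF 2 was only just above control 1. For Gpx4 the log2 fold change was 0.26 with the block (0.16 to 0.35; edgeR adjusted p = 3.28e-05) and 0.17 with the length trend removed (adjusted p = 0.0221), and without the block its adjusted p was 0.695. The value without the block was 0.26, and it was 0.089 without PEDF 1 and 0.42 without PEDF 2. Prdx1, a peroxiredoxin, was at 309 and 271 CPM in control and at 334 and 317 CPM in PEDF libraries, a log2 fold change of 0.17 with the block (edgeR adjusted p = 0.0112) and of 0.13 with the length trend removed (adjusted p = 0.132). Without the block, the Prdx1 value was 0.072 when control 2 was left out and 0.27 when control 1 was left out. DESeq2 with the block did not call Prdx1 (adjusted p = 0.138), whereas it called Gpx4 (adjusted p = 0.0318). The promoter window of Prdx1 holds a core on the complementary strand that overlaps an AP-1 motif, and it is shown as the only core in a window of the 6 pathway genes called with the block. The windows of Taldo1 (1), Gpx4 (4), Fth1 (2) and Gstp1 (1) held none, and Abcc1 had no window.
Prdx1 (chr4:116685456-116685484, plus strand, bases -133 to -125, core in capitals): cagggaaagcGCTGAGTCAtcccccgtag
Txn1, thioredoxin, the substrate of Txnrd1, was at 192 and 169.5 CPM in control and at 198 CPM in both PEDF libraries, a log2 fold change of 0.13 with the block (edgeR adjusted p = 0.105), and of 0.043 to 0.22 without the block when a library was left out.

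Of the 8 haem and iron genes, Fth1, the ferritin heavy chain, was called with the block. It was at 384 and 322 CPM in control 1 and 2 and at 426 and 354 CPM in PEDF 1 and 2, so the groups overlapped while PEDF was above control within each experiment. With the block Fth1 had a log2 fold change of 0.14 (0.055 to 0.23; edgeR adjusted p = 0.0420), and of 0.11 (adjusted p = 0.202) with the length trend removed. Without the block, the Fth1 value was 0.0052 without PEDF 1, 0.019 without control 2, 0.27 without PEDF 2 and 0.28 without control 1, so each library moved it. Fth1 was not called by DESeq2 with the block (adjusted p = 0.188). Ftl1, the ferritin light chain, was at 1359.9 and 1189.8 CPM in control and at 1462 and 1284 CPM in PEDF libraries (log2 fold change 0.11, edgeR adjusted p = 0.126 with the block). Slc40a1, the iron exporter ferroportin, is named outside the naming rule, after its values were seen, because it was called only with the length trend removed. It was at 16.9 and 13.2 CPM in control and at 22.2 and 16.4 CPM in PEDF libraries, with a log2 fold change of 0.41 in that fit (edgeR adjusted p = 0.0332) and 0.35 with the block alone (adjusted p = 0.0701). Abcb6, an ABC transporter linked to porphyrins, is also named outside the rule, as it had the widest fold change of the listed genes tested, on 16 counts in each control library and 2 and 9 counts in PEDF 1 and PEDF 2. The 2 groups did not overlap, and the log2 fold change of -1.62 with the block was not called (edgeR adjusted p = 0.210).

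Of the 15 detoxification and efflux genes tested, 1 was higher and 1 lower with the block. Gstp1, a glutathione transferase, was at 53.7 and 56.4 CPM in control and at 70.4 and 66.4 CPM in PEDF libraries. Both PEDF libraries lay above both control libraries, as they did for 18.9% of all genes tested. Its log2 fold change was 0.31 (0.18 to 0.44; edgeR adjusted p = 0.000343) with the block, 0.22 (adjusted p = 0.0381) with the length trend removed, and 0.31 (adjusted p = 0.551) without the block. Abcc1, a pump that exports glutathione conjugates, was at 125 and 149 CPM in control and at 106 and 116 CPM in PEDF libraries. Its log2 fold change was -0.31 (-0.41 to -0.20; edgeR adjusted p = 3.03e-06) with the block, -0.20 (adjusted p = 0.0167) with the length trend removed, and -0.31 (adjusted p = 0.626) without the block, and its exons span 15092 bases. In the fit without the block, Abcc1 ran from -0.17 without control 2 to -0.43 without control 1, where it was called (edgeR adjusted p = 0.00921), and it was also called without a filter on low counts (-0.31, edgeR adjusted p = 0.0328). The Gstp1 value stayed between 0.27 and 0.35 with any library left out. DESeq2 with the block gave neither gene an adjusted p at its default filter, and 0.0318 for Abcc1 with the limit set to 0.05. Ephx1, microsomal epoxide hydrolase, was at 132 and 126 CPM in control and at 140.5 and 140.2 CPM in the PEDF libraries (log2 fold change 0.12, edgeR adjusted p = 0.216 with the block). Gstp1, Gpx4, Prdx1, Txn1, Fth1 and Ftl1 have close relatives or processed pseudogenes in the genome, and counts of uniquely mapped reads leave out reads shared with them.

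The ATF4 pathway also drives Slc7a11, and 0 of its 9 genes tested were called in either fit. Atf4, the factor itself, was at 387 and 379 CPM in control and at 392 and 385 CPM in PEDF libraries, a log2 fold change of 0.019 (-0.12 to 0.16; edgeR adjusted p = 0.967). Phgdh, which opens serine synthesis, was at 315 and 313 CPM in control and at 339.5 and 315 CPM in PEDF libraries (log2 fold change 0.060, edgeR adjusted p = 0.892). A second entry for Ddit3, a gene of this list, held 0 counts in every library and was not tested.

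**Figure D4:**
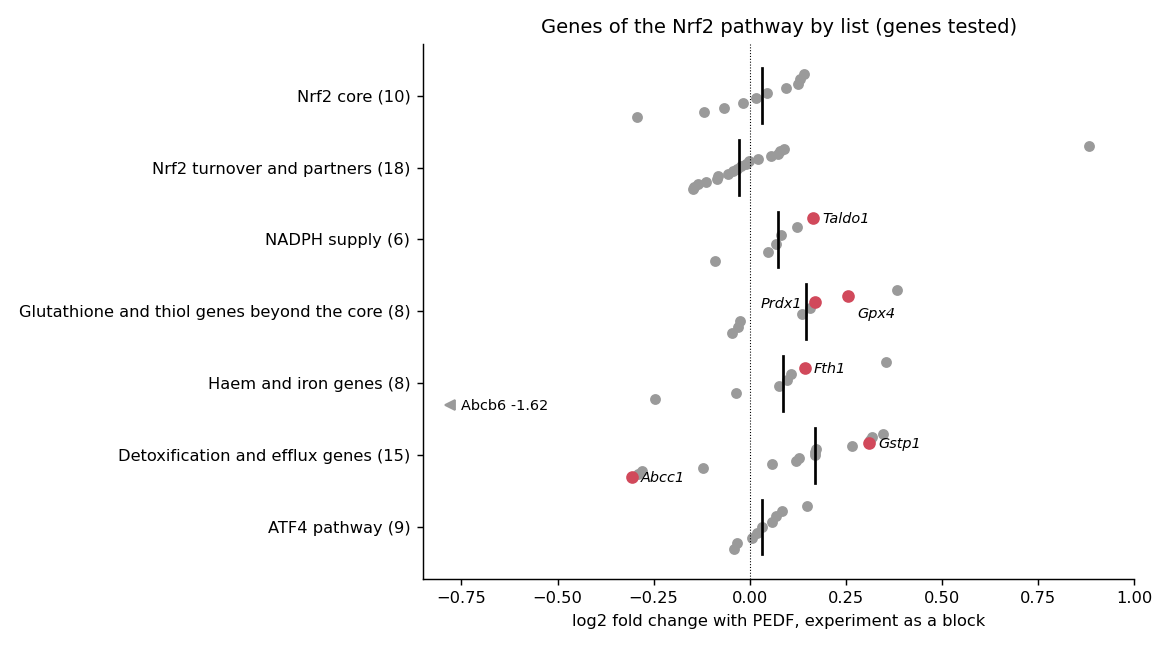
Log2 fold change with PEDF, with the experiment as a block (horizontal axis), of every gene tested in the Nrf2 core and 6 further lists, with the median of each list as a bar. The 6 genes called at an adjusted p under 0.05 are red and named, none is among the Nrf2 core genes, and Abcb6 lies beyond the axis at -1.62.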

How the data were processed

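Polyadenylated RNA of 4 MEF libraries was sequenced from both ends. The submitters' processing notes name FastQC 0.11.7, Trimmomatic 0.38, HISAT2 2.1.0, SAMtools 1.9, featureCounts 1.6.3 and mm10, and the strand setting and annotation are not given in the sources used here. The authors deposited raw counts per gene. The authors also deposited TPM values, used here for levels between genes. Of 55487 genes, 54784 had the coordinates of GENCODE M21, which gave exon lengths.

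Counts were fitted in R 4.3.3 with edgeR 4.0.16 (TMM, robust quasi-likelihood test, no covariate) over 19384 genes (10 or more counts summed over the libraries), with Benjamini-Hochberg adjustment and a threshold of 0.05. The study design gives each experiment its own embryos, so the experiment pairs the libraries. The difference between experiments in control correlated with that in PEDF libraries across 10701 genes (r = 0.423, genes not being independent), and the experiment was fitted as a block. The length trend was fitted in each library with splines of 5 degrees of freedom on genes with a mean log2 CPM above 3. Alternatives were RLE factors, DESeq2 1.42.0, other filters on low counts, limma 3.58.1 on log2(TPM + 1) and log2(TPM + 0.1), and each library left out. Methods were tested on simulated data that held no difference between experiments and no length trend. That test therefore does not show how the block or the removal of the trend performs where these are present. With 2 libraries in a group, p-values without the block rest on the spread between these 2 preparations. With the block they rest on how far the difference with PEDF varied between the preparations. For the members, edgeR took most of this spread from other genes in both fits. With the block, Slc7a11 thus had an unadjusted p of 0.00587 in edgeR, though it was at -0.020 in experiment 1 and -0.52 in experiment 2.

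The members, lists and tests were chosen with earlier results of these data known. The genes named are the members, each listed gene called with or without the block, and the 2 genes of each list highest in mean TPM. Slc3a2, Slc40a1, Abcb6 and the marker Acta1 are named outside this rule, after their values were seen. The TPM ratios, length classes and counts of groups without overlap were added after values were seen, and so was the DESeq2 filter tuned to 0.05.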

Additional observations from a re-analysis of the deposited data

How the results depend on the processing

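The count of members called with PEDF was 0 in all settings except without control 1, where it was 1 (Slc7a11), a range of 0 to 1 over the libraries left out. In fits that leave out a library, the lone library of a group is assumed to vary like the others. The count over all genes was 1, and it was 726 with the replicate block, 421 with the length trend removed as well, 106 without a filter on low counts, 0 with filterByExpr (1187 at an unadjusted p under 0.05) and 0 in limma (849 with either pseudocount and 1127 without a filter), and 2 to 205 with a library left out, the 205 being without control 1 and 24 without PEDF 2. DESeq2 called 5 genes of 8416 with an adjusted p, and 118 of 1310 with the block. The limit of its own filter had first been left at its default of 0.1 and was then also set to 0.05, a choice made after seeing the data, which gave 3 of 26183 and 119 of 1817. The members were not called under either limit, but with the block DESeq2 gave an adjusted p to 1 of the 10 members, so that fit says little of them. For the other pathway genes the count was 0, and it was 6 with the replicate block, 4 with the length trend removed, 1 without a filter on low counts, 1 with the block in DESeq2 (2 with the limit of 0.05) and 0 to 1 with a library left out. Between experiments, 870 genes were called, and 102 by DESeq2 under either limit of its filter and 11 without a treatment term.

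With a library left out, the log2 fold change ran from -0.031 to 0.12 for Nfe2l2, -0.018 to 0.053 for Keap1, -0.11 to 0.085 for Gclc and -0.56 to 0.023 for Slc7a11. The other members kept their sign but also moved by over 1.5 times, from 0.037 to 0.21 for Nqo1, 0.071 to 0.20 for Hmox1, 0.066 to 0.19 for Gclm, 0.039 to 0.15 for Srxn1, -0.12 to -0.0085 for Txnrd1 and -0.19 to -0.047 for Gsr. The same held for Txn1 (0.043 to 0.22), Ftl1 (0.010 to 0.21), Idh1 (0.071 to 0.17), Phgdh (0.0040 to 0.11), Atf4 (0.0017 to 0.035) and Nfe2l1 (-0.081 to -0.033), none of which was called, and the ranges of the genes called stand beside them. Without control 2 it changed sign for Nfe2l2 (-0.0071), Gclc (0.085) and Slc7a11 (0.023), and without PEDF 1 for Nfe2l2 (-0.031), Keap1 (-0.018) and Gclc (0.028). In limma, Keap1 was at -0.0064 and -0.0066 with the larger and the smaller pseudocount, and Atf4 at -0.0046 with both. With the block and the length trend removed, Atf4 was at -0.045 and Phgdh at -0.0023. None of these changes of sign passed a test. The cause was not tested. Apart from the calls given above and beside each gene, the block changed no call of a gene named.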
